A study of Homo sapiens with 15 samples.

Results

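The 91 genes described here are human microRNA (miRNA) genes whose symbol holds a number from 129 to 999 and which had at least 100 raw counts summed over 15 small RNA libraries. Genes of 19 numbers, such as 130, 146 and 181, were set aside before counting, which left 462 listed genes in the number range. Of these, 287 had a count of 0 in every library, 84 had between 1 and 99 counts, and 91 reached the minimum. Of all 50037 genes, 21453 had a count above 0. Members were chosen by their total raw count, so their levels are given as a description. Just inside the minimum were MIR190A with 116 counts, MIR196A2 with 108 and MIR365A with 101. Just outside it were MIR506 with 92, MIR206 with 83, and MIR129-2 and MIR548N with 74 each.

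The libraries came from human cells labelled HEK-293, a line from embryonic kidney, with the genotype given as WT. All cells were grown in DMEM with fetal bovine serum and incubated for 18 h in 1 of 3 ways, with 5 libraries each. The VLDL group received very low-density lipoprotein, and its titles add the word pcDNA without explaining it. The LPL:VLDL group received the lipids that lipoprotein lipase (LPL) released from VLDL, and the third group received these lipids with 20 µM of the compound GKT136901, which inhibits the NOX1 and NOX4 forms of NADPH oxidase, enzymes that make reactive oxygen species. Each experiment, numbered 2 to 6 in the labels, gave 1 library of each group, as replicates 1 to 5. The labels do not say whether the experiments were separate cultures, so a p-value here reflects only how much these libraries vary, which may be technical.

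Library totals ran from 5076917 to 9757123 counts, and miRNA genes took 30.2% to 48.7% of a library. The series title names macrophages. Fragments of 17 of 18 myeloid marker genes had counts, led by CSF1R, ITGB2 and SPP1, and AIF1 was at 0. Their summed level was 38.5 to 110 CPM (the usual depth-scaled count, here of the library total) in the VLDL group, 29.4 to 127 in the LPL:VLDL group and 29.9 to 83.6 with GKT136901. Of 18 HEK-293 marker genes 11 had counts, summing to 0.615 to 1.96, 0.317 to 2.09 and 0.788 to 2.29 CPM in the same order. HOXA9 held most of these, and LIN28B, NEFM, LHX1, HOXC9, HOXD10, SYT4 and INA were at 0. These markers go against the label of the line, and their part in the results below was not tested. Among the members, MIR511, which lies in an intron of the macrophage mannose receptor gene MRC1, had 319 counts. The epithelial miRNAs MIR200C, MIR215, MIR141 and MIR194-1 had 6199, 5047, 215 and 174. What these members say of the cell type was not tested.

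A miRNA gene is transcribed into a hairpin that the enzymes Drosha and Dicer cut into a short duplex. One strand, or arm, of the duplex is loaded into an Argonaute protein and pairs with messenger RNAs, mainly through its seed (bases 2 to 8), which lowers their translation and stability. Many miRNA genes lie inside introns of host genes or in clusters that can be transcribed together, and miRNAs with the same seed can bind the same sites. In the deposited table reads are counted per precursor gene, so both arms are summed.

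The sequences of the 4 members with the most counts are shown because they carried 48.4% of all member counts. All sequences are from RefSeq (GRCh38.p14), 5′ to 3′, with the seed in capitals.
miR-340-5p: uUAUAAAGcaaugagacugauu
miR-340-3p: uCCGUCUCaguuacuuuauagc
miR-140-5p: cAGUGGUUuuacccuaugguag
miR-140-3p: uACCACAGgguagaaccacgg
miR-532-5p: cAUGCCUUgaguguaggaccgu
miR-532-3p: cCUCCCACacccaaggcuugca
miR-342-5p: aGGGGUGCuaucugugauuga
miR-342-3p: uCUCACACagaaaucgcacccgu

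The next set is shown because these members are among the 8 with the lowest p between the experiments.
miR-584-5p: uUAUGGUUugccugggacugag
miR-184: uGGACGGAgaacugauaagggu
miR-628-5p: aUGCUGACauauuuacuagagg
miR-193a-3p: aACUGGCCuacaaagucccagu
miR-504-5p: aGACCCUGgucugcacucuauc

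The third set shows how alike some members are, which bears on how their reads could be counted.
miR-500a-3p: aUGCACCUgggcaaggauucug
miR-501-3p: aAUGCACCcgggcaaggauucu
miR-502-3p: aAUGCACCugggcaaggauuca
miR-365a-3p: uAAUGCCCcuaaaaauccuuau
miR-365b-3p: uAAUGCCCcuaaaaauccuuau
miR-365a-5p: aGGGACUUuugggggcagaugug
miR-365b-5p: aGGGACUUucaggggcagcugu
miR-195-5p: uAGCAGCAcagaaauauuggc
miR-424-5p: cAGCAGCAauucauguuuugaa
miR-503-5p: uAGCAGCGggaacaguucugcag

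The sequence table held 152 mature sequences for 87 of the 91 members, with 143 different seeds. Of these seeds, 9 were shared by 2 members each, which covered 16 members. miR-195-5p and miR-424-5p share the seed of the miR-15/16 family, and miR-501-3p and miR-502-3p share another. miR-500a-3p and miR-502-3p have a run of 20 bases in common, shifted by 1 base, so their seeds differ. Other pairs with a common seed were MIR362 with MIR500B, MIR326 with MIR330, MIR190A with MIR190B, MIR200C with MIR550A3, and MIR450B with MIR769.

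Reads that fit several places, or exons of more than 1 gene, were not counted, so a count can understate a miRNA. A mature sequence identical to one of another gene was found for 9 members: MIR199B, MIR365B, MIR450A2, MIR550A3, MIR133A2, MIR509-3, MIR194-1, MIR196A2 and MIR365A. The 3p arms of MIR365A and MIR365B are the same over 22 bases, so reads that lie wholly in that arm could be counted for neither gene. MIR365B had 17045 counts and MIR365A 101, a ratio of 169. Exons of another gene overlapped 4 members in part: MIR365B by 11 bases, MIR424 by 17, MIR215 by 31 and MIR133A2 by 25. Among the 462 listed genes, 106 of the 117 with such an overlap were at 0 (90.6%), against 181 of the 345 without one (52.5%). A count of 0 in an overlapping gene therefore gives no level for it. Of the 287 genes at 0, 60 have a mature sequence identical to one of another gene, so their 0 can also understate them.

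Together the members held 1477441 of the 132787575 counts (1.11%) and 2.86% of the counts on miRNA genes. Counts were concentrated, with 10 members holding 75.4% of the member total. At least 10000 counts were reached by 24 members and at least 1000 by 53, while 24 had fewer than 300. The members' share of the miRNA counts was 2.90% ± 0.160 (SD, n = 5) in the VLDL group, 2.84% ± 0.291 (SD, n = 5) in the LPL:VLDL group and 2.92% ± 0.245 (SD, n = 5) with GKT136901. These group shares differ by less than the SD of any of them.

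Levels below are CPM scaled by the trimmed mean of M-values (TMM). MIR340, in an intron of the ubiquitin ligase gene RNF130 (chr5:180015303-180015397, minus strand), had the most counts, 234165. In the VLDL libraries of experiments 2 to 6 its level was 813, 1857, 1899, 2286 and 2103 CPM, in the LPL:VLDL libraries 790, 1985, 2046, 2277 and 2393, and with GKT136901 721, 1897, 1771, 2254 and 2121. All 3 libraries of experiment 2 lay far below the other 12, and the groups overlapped.

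MIR140, in the ubiquitin ligase gene WWP2 and best known from cartilage (chr16:69933081-69933180, plus strand), had 890, 1499, 1328, 1281 and 1319 CPM in the VLDL libraries. Its LPL:VLDL libraries had 1151, 1440, 1700, 1409 and 1377 CPM, and those with GKT136901 1241, 1457, 1947, 1469 and 1462. The VLDL library of experiment 2 was the lowest, and the highest was the GKT136901 library of experiment 4.

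MIR532, the first gene of a cluster in the chloride transporter gene CLCN5 (chrX:50003148-50003238, plus strand), had 780, 1337, 1288, 1442 and 1458 CPM in the VLDL libraries. The LPL:VLDL libraries had 948, 1328, 1508, 1593 and 1791 CPM, and those with GKT136901 1002, 1318, 1536, 1616 and 1588. Experiment 2 was again lowest in each group. MIR342, in the actin regulator gene EVL (chr14:100109655-100109753, plus strand), had 617, 825, 805, 1112 and 1032 CPM with VLDL, 758, 630, 867, 1239 and 977 with LPL:VLDL, and 788, 818, 867, 1136 and 879 with GKT136901. Its highest library in each group was that of experiment 5.

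**Figure D1:**
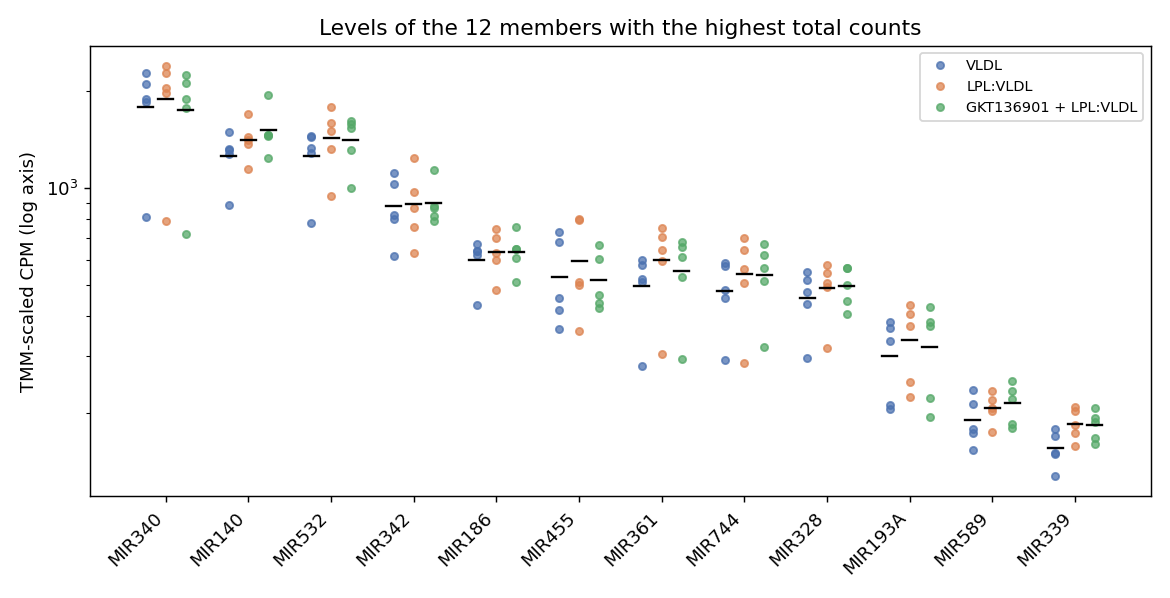
TMM-scaled CPM (log axis) of the 12 members with the highest total counts. Each point is 1 library, coloured by group, and the short bars are the means of 5 libraries. In MIR340 1 library of each group, that of experiment 2, sits between 721 and 813 CPM, and the others are between 1771 and 2393.

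Per 100 bases of precursor, the mean levels over all 15 libraries were 1910 CPM for MIR340, 1504 for MIR532, 1398 for MIR140 and 899 for MIR342. MIR532 and MIR140 overlapped in CPM across the libraries. The 8 that followed by counts were MIR186, MIR455, MIR361, MIR744, MIR328, MIR193A, MIR589 and MIR339. Their means ran from 764 CPM per 100 bases for MIR361 to 186 for MIR339, and the same 12 genes led per gene and per 100 bases. Of these 12 genes, 10 lie within a host gene transcribed on the same strand; MIR328 is antisense to ELMO3 and MIR193A has no host.

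The spread over the 15 libraries, as a coefficient of variation, ran from 12.8% in MIR582 to 108% in MIR196A2, with a median of 33.3%. In the 24 members with at least 10000 counts the median was 20.1%, and in the 24 with fewer than 300 it was 68.8%. In 16 members at least 1 library was at 0. Precursors were 64 to 118 bases long, and the GC content of the 79 hairpins in the sequence table ran from 27.4% to 73.4% (median 47.7%). A host gene on the same strand spans 70 of the 91 members.

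The X chromosome carries 21 of the 91 members (23.1%), against 62 of all 462 listed genes (13.4%). Of the 5 clusters in which members lie within 10000 bases of each other, which hold 19 members, 3 are on X. The cluster inside CLCN5 holds 8 members over 11536 bases and took 14.7% of the member counts. MIR532 alone had 82.7% of the cluster's counts. Per 100 bases, MIR532 had 1504 CPM, MIR501 113, MIR500A 105, MIR660 43.9, MIR362 34.6, MIR502 30.8, MIR500B 7.64 and MIR188 4.80. All 18 bases listed for miR-500b-5p lie within miR-500a-5p, so reads wholly within them could be counted for neither gene. The value for MIR500B may therefore not reflect its level. MIR188 starts 265 bases after the end of MIR532, and MIR532 had 333 times its counts.

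The MIR424/MIR503 cluster on X spans 6527 bases and is known for cell cycle control. MIR450B had 125 CPM per 100 bases, MIR424 108, MIR503 52.2, MIR542 36.8 and MIR450A2 5.90. MIR450A2 shares its mature 5p sequence with MIR450A1, which did not reach 100 counts. Unequal counts between neighbours were also seen in the smaller clusters, with ratios of 28.8 for MIR200C over MIR141, 29.0 for MIR215 over MIR194-1 and 22.5 for MIR224 over MIR452. The mature sequence listed for MIR194-1 is the same in MIR194-2, so reads wholly within it could be counted for neither. The ratio for MIR215 over MIR194-1 may therefore not reflect their levels.

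**Figure D2:**
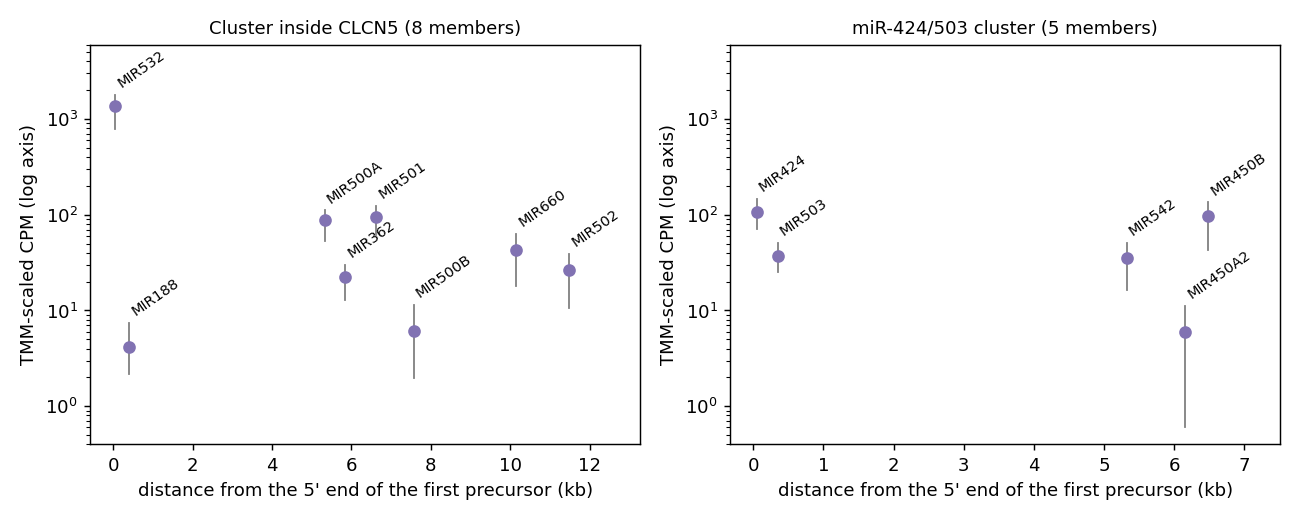
TMM-scaled CPM (log axis) against the distance of each precursor's centre from the 5′ end of the first precursor (kb), for the X-linked clusters. Points are means of 15 libraries and lines run from the lowest to the highest library. MIR532 stands at 1369 CPM and its neighbour MIR188 at 4.13.

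Lists of miRNAs named for a tissue or process filled unevenly. The imprinted DLK1-DIO3 region on chromosome 14, a large cluster active in placenta and brain, had 1 member among 48 listed genes, MIR345, which lies 544434 bases before the first of the others in the number range and so outside the cluster proper. The other 47 summed to 115 counts, and 37 of them were at 0, of which 16 overlap an exon of another gene. Stem cell miRNAs (the miR-302 and miR-371 clusters) had 0 members of 8 listed, summing to 10 counts, and neural miRNAs 0 of 10, summing to 238. Of their genes at 0, 2 of 6 and 2 of 5 overlap exons. Numbered gene copies, such as MIR138-1 and MIR138-2 on the neural list, may also lose reads that fit both. These low counts are therefore no sure measure of absence. Blood cell miRNAs also had 0 members of 8, but all 7 genes at 0 there overlap exons, so their absence from the table is no measure of their level.

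Of 18 miRNAs linked to lipid and cholesterol metabolism, 16 could be members by their number and 5 were (MIR342, MIR224, MIR335, MIR615 and MIR194-1). MIR148B and MIR185, with 501544 and 108889 counts, bear numbers that were set aside. The list for NADPH oxidases and redox had 4 of 15 (MIR424, MIR500A, MIR200C and MIR452). For inflammation and macrophages it was 7 of 16, among them MIR342, MIR744 and MIR424, and all 8 genes at 0 on that list overlap exons. Members of the epithelial list were MIR200C, MIR215, MIR141 and MIR194-1, 4 of 10. The mesenchymal and muscle list had MIR199B, MIR145 and MIR133A2, 3 of 13, the p53, hypoxia and senescence list 3 of 8, and the list of miR-15/16 relatives 3 of 4. Of these, MIR424 and MIR195 share a seed, and miR-503-5p has only a run of 6 bases from base 2 in common with miR-424-5p. MIR221 and MIR222 (both at 0 and in exons) gave 0 members. Of 5 mirtrons or Drosha-independent genes, MIR484, MIR877 and MIR668 were at 0, MIR702 is not in the table, and MIR320A had 622432 counts but bears a number that was set aside. In none of these lists did a member pass the test in any of the 3 treatment comparisons. Of the genes at 0, 7 of 9 on the lipid list and 6 of 8 on the redox list overlap exons. So do 5 of 5 on the epithelial, 5 of 9 on the mesenchymal and muscle and 3 of 5 on the p53 list. A 0 in these genes gives no level, so the fractions of members can understate a list.

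The first comparison asks what LPL-released lipids change relative to intact VLDL. No member passed the test, 0 of 91 at an adjusted p under 0.05 by edgeR's quasi-likelihood test, where 0% of all 4099 genes tested were called. At an unadjusted p under 0.05 there was 1 member, MIR590, against 1.88% of all genes. By DESeq2 it was 2 members (3.07% of all genes) and by limma voom 1 (3.15%), with 0 called by either. Fitted differences ran from -0.82 to 1.09 on the log2 scale. With the experiment as a block, which pairs the libraries, 0 members were called against 0.0244% of all genes. There 9 members (9.89%) had an unadjusted p under 0.05, against 4.20% of all genes. This depended on the scaling. With the block and miRNA scaling it was 3 members (3.30%), against 4.71% of all genes. With the block and library size alone it was 5 (5.49%), against 4.73%.

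Most members stood slightly higher with LPL:VLDL, in a way that depended on the scaling. Under TMM 70 of 91 log2 differences were above 0, where 50.7% of all genes were, and the members' median was 0.14 against 0.01 for all genes. The 200 other miRNA genes tested had a median of 0.12. Scaled to the miRNA genes alone, 47 were above 0 and the median was 0.00, while all genes had a median of -0.11. By library size alone it was 45 members, with a median of -0.00. The TMM median was 0.04 without the VLDL library of experiment 2 and 0.25 without the LPL:VLDL library of experiment 2. In 14 members the LPL:VLDL library was the higher in 5 of 5 experiments, against 3.44% of all genes, and with miRNA scaling in 3 members, against 1.49%.

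MIR629, in an intron of the transcriptional corepressor gene TLE3, had the lowest p with the block. Its level was 99.6, 158, 157, 153 and 186 CPM with VLDL and 107, 207, 207, 195 and 245 CPM with LPL:VLDL. The groups overlapped, yet LPL:VLDL was higher in 5 of 5 experiments. The log2 difference was 0.33 (SE 0.11) with the block, with an adjusted p of 0.988 by edgeR, and 0.20 with the block and miRNA scaling. Without the block it was 0.35, and 0.22 or 0.23 without the VLDL library of experiment 2 or the LPL:VLDL library of experiment 6.

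MIR590, in the translation factor gene EIF4H, had a difference of the opposite sign. It had 4.13, 14.8, 6.58, 6.42 and 11.9 CPM with VLDL and 1.65, 6.23, 7.41, 5.26 and 4.29 CPM with LPL:VLDL, lower in 4 of 5 experiments. The groups overlapped. The log2 difference was -0.82 (SE 0.39; adjusted p 0.999 by edgeR), -0.54 without the VLDL library of experiment 3, and -0.93 with the block and miRNA scaling, where its unadjusted edgeR p was 0.0019. That last fit was added after the data were seen, and the lowest adjusted edgeR p of any member in it was 0.979.

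MIR504, which lies in the growth factor gene FGF13 and is known to target the p53 messenger RNA, had 26.1, 33.9, 44.1, 12.1 and 7.47 CPM with VLDL. With LPL:VLDL it had 16.4, 52.9, 55.5, 23.6 and 24.9 CPM, higher in 4 of 5 experiments. The log2 difference was 0.57 (SE 0.21) with the block (adjusted p 0.988 by edgeR). The block difference was 0.30 without experiment 6 and 0.86 without experiment 2. Without the block it was 0.49, and it ranged from 0.22 without the LPL:VLDL library of experiment 4 to 0.81 without the VLDL library of that experiment. It was 0.31, 0.24 and 0.28 without the VLDL libraries of experiments 5 and 6 and the LPL:VLDL library of experiment 3.

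MIR550A3 was 1 member whose groups did not overlap, against 0.561% of all genes. Its 213 counts gave 0.723 to 1.67 CPM with VLDL (median 1.25) and 1.74 to 2.77 CPM with LPL:VLDL (median 2.08). MIR361, MIR339 and MIR548L were higher in 5 of 5 experiments and MIR760 in 4 of 5, with log2 differences of 0.25, 0.26, 0.83 and 0.34 with the block. For MIR361, MIR339 and MIR760 these became 0.12, 0.13 and 0.20 with miRNA scaling and the block. Without the block MIR361 had 0.27, but 0.11, 0.43 and 0.15 without the VLDL or LPL:VLDL library of experiment 2 or the LPL:VLDL library of experiment 6. MIR339 had 0.17 without the LPL:VLDL library of experiment 4, and MIR760 0.18 with the block but without experiment 3. MIR933 and MIR578, both under 300 counts, were named by the fit without the block only.

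The second comparison asks what GKT136901 changes in cells given LPL-released lipids. Again 0 of 91 members were called by edgeR, against 0% of all genes, and 0 with the block. At an unadjusted p under 0.05 there were 2 members, against 2.12% of all genes, and with the block 6, against 3.68%. With the block it was 4 under miRNA scaling (3.56% of all genes) and 8 by library size alone (3.83%). DESeq2 gave 2 members (3.12% of all genes) and limma voom 3 (4%), again with 0 called. The median difference was -0.01, and 43 of 91 members were above 0, where 47.9% of all genes were. By library size alone 68 of 91 were above 0 with a median of 0.09, and with miRNA scaling 45 of 91 with a median of -0.01. Without the LPL:VLDL library of experiment 2 the TMM median was -0.13, and without the GKT136901 library of that experiment 0.08. In 5 of 5 experiments 6 members were higher with GKT136901 and 7 lower, and with miRNA scaling 2 and 6. The share of all genes is not given for this.

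MIR504 had the lowest p with the block in this comparison. Its GKT136901 libraries had 15, 33.8, 41.0, 13.6 and 11 CPM, lower than the LPL:VLDL library in 5 of 5 experiments, though the groups overlapped. The log2 difference was -0.68 (SE 0.21) with the block, at an unadjusted p of 0.0028 and an adjusted p of 1.00 by edgeR. With the block and miRNA scaling it was also -0.68. Without the block it was -0.60, and -0.37 or -0.93 without the LPL:VLDL or the GKT136901 library of experiment 4. The LPL:VLDL libraries serve in both comparisons, so the 2 values for MIR504 are not separate observations.

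MIR195, a miR-15/16 family member in MIR497HG, had 10.9, 6.23, 6.83, 11.7 and 9.52 CPM with LPL:VLDL and 7.66, 6.03, 5.63, 3.54 and 5.37 CPM with GKT136901. It was lower in 5 of 5 experiments, and the groups overlapped. The fitted log2 difference was -0.68 (SE 0.33; adjusted p 1.00 by edgeR). With the block it was -0.69, and -0.44 without experiment 5. MIR424, which has the same seed, and MIR503 had 112 ± 25.4 and 39.9 ± 8.54 CPM with LPL:VLDL against 106 ± 12.7 and 37.2 ± 5.46 CPM with GKT136901 (SD, n = 5); whether they differ from MIR195 in this was not tested.

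MIR141, an epithelial miRNA of the miR-200 family, did not overlap between these groups, as did 0.488% of all genes. It had 1.48, 1.25, 0.926, 1.20 and 0.402 CPM with LPL:VLDL and 1.55, 2.81, 2.71, 2.63 and 2.40 CPM with GKT136901, from 215 counts in all libraries. The log2 difference was 1.18 (SE 0.54; adjusted p 1.00 by edgeR). Its cluster neighbour MIR200C had 49.1 ± 10.3 and 47.8 ± 10.8 CPM in the same groups (SD, n = 5).

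MIR590 was higher with GKT136901 in 4 of 5 experiments (4.45, 8.65, 6.72, 7.54 and 9.26 CPM), with a log2 difference of 0.63 (SE 0.27) with the block. Without the block it was 0.56, and 0.33 without the LPL:VLDL library of experiment 2. MIR581 and MIR616 had block differences of -0.42 and -1.26, and MIR933 -1.27. MIR184 was higher in 5 of 5 experiments with a block difference of 0.44 (SE 0.20), and without the GKT136901 library of experiment 2 its difference in the fit without the block was -0.26. MIR874 was named by the fit without the block, and its sign was lost when experiment 6 was left out. In all these members the adjusted p was above 0.05.

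**Figure D3:**
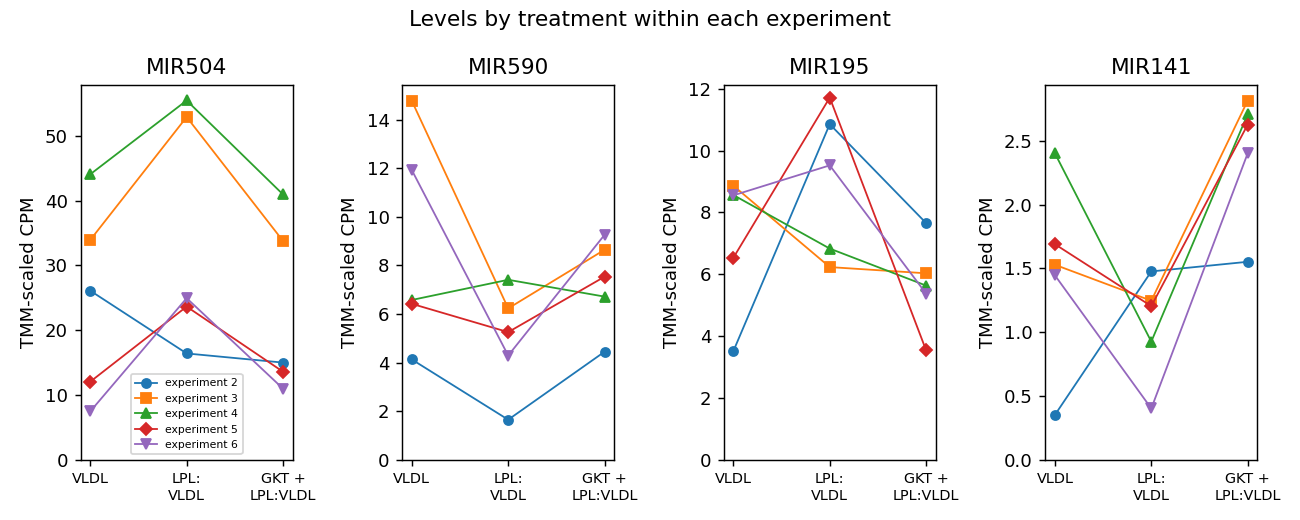
TMM-scaled CPM of MIR504, MIR590, MIR195 and MIR141 in the 3 groups, with 1 line per experiment. MIR504 and MIR195 were lower with GKT136901 than with LPL:VLDL in 5 of 5 experiments and MIR141 was higher in 5 of 5, from a level of 0.402 to 1.48 CPM with LPL:VLDL. The members shown were picked by low p in these libraries.

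Comparing GKT136901 with intact VLDL changes both the lipid and the inhibitor. Here too 0 of 91 members were called by edgeR without and with the block, against 0% of all genes in both fits. At an unadjusted p under 0.05 there were 0 members without the block, against 2.22% of all genes, and 11 with it (12.1%), against 4.32%. DESeq2 gave 0 (3.12% of all genes) and limma voom 3 (3.85%), with 0 called. In 5 of 5 experiments 11 members were higher with GKT136901 and 2 lower, and with miRNA scaling 1 and 3. The share of all genes is not given for this. Above 0 were 68 of 91 members, where 49.6% of all genes were, with a median of 0.16 (all genes -0.00, the 200 other miRNA genes 0.12), and the median was 0.04 without the VLDL library of experiment 2. With miRNA scaling 50 members were above 0 with a median of 0.02, where all genes had -0.16, and with the block as well 1 member, MIR616, had an unadjusted p under 0.05, against 4.88% of all genes.

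The members with the lowest p with the block were MIR140, MIR502, MIR616, MIR769, MIR339 and MIR501. MIR140 was higher in 4 of 5 experiments by 0.27 (SE 0.10) on the log2 scale with the block, at an adjusted p of 0.997 by edgeR, and by 0.13 with miRNA scaling added. MIR502 and MIR501, of the CLCN5 cluster, were higher in 4 and 5 of 5 experiments by 0.39 (SE 0.16) and 0.28 (SE 0.12), and by 0.26 and 0.14 with miRNA scaling added. MIR502 had 10.6, 29.6, 26.9, 26.8 and 26.7 CPM with VLDL and 20.5, 27.3, 38.9, 28.6 and 37.9 CPM with GKT136901. The VLDL library of experiment 2 was the lowest of all. Without it, and without the block, the differences were 0.14 for MIR502, 0.16 for MIR501 and 0.15 for MIR140, against 0.34, 0.27 and 0.26 with all libraries. With the block and without experiment 2 MIR502 had 0.24, and MIR140 had 0.15 without the GKT136901 library of experiment 4. MIR616, in the stress response gene DDIT3, was lower in 5 of 5 by -1.45 (SE 0.61) from 214 counts in all, and by -0.84 to -1.91 with a library or an experiment left out. MIR548A3, MIR615, MIR548L and MIR452 were named by the fit without the block, each with fewer than 350 counts, and no member's groups failed to overlap, against 0.512% of all genes.

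Over the CLCN5 cluster, 7 of 8 members were above 0 in this comparison with a median of 0.16 (0.05 with miRNA scaling), and the median was 0.03 for LPL:VLDL against VLDL. The median of the 5 members of the lipid list was 0.23 for LPL:VLDL against VLDL (5 of 5 above 0) and 0.05 with miRNA scaling. For the 4 members of the redox list the median was -0.06 with GKT136901 against LPL:VLDL (1 of 4 above 0), and for the 7 of the inflammation list it was -0.06 (2 of 7). These medians were not tested.

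Of 23 genes of the miRNA processing pathway (Drosha, Dicer, the Argonautes and others), 12 passed the filter as messenger RNA fragments and 0 were called in any of the 3 comparisons. The 2 with the most counts were the RNA helicase DDX5, with 33.6, 33.6 and 36.9 CPM in the VLDL, LPL:VLDL and GKT136901 groups, and AGO2, with 10.9, 10.9 and 11. DICER1, from 139 counts, had 0.636 ± 0.196, 0.830 ± 0.426 and 1.68 ± 0.606 CPM, and AGO3, from 150, 1.65 ± 1.10, 1.32 ± 1.43 and 0.524 ± 0.412 (SD, n = 5).

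**Figure D4:**
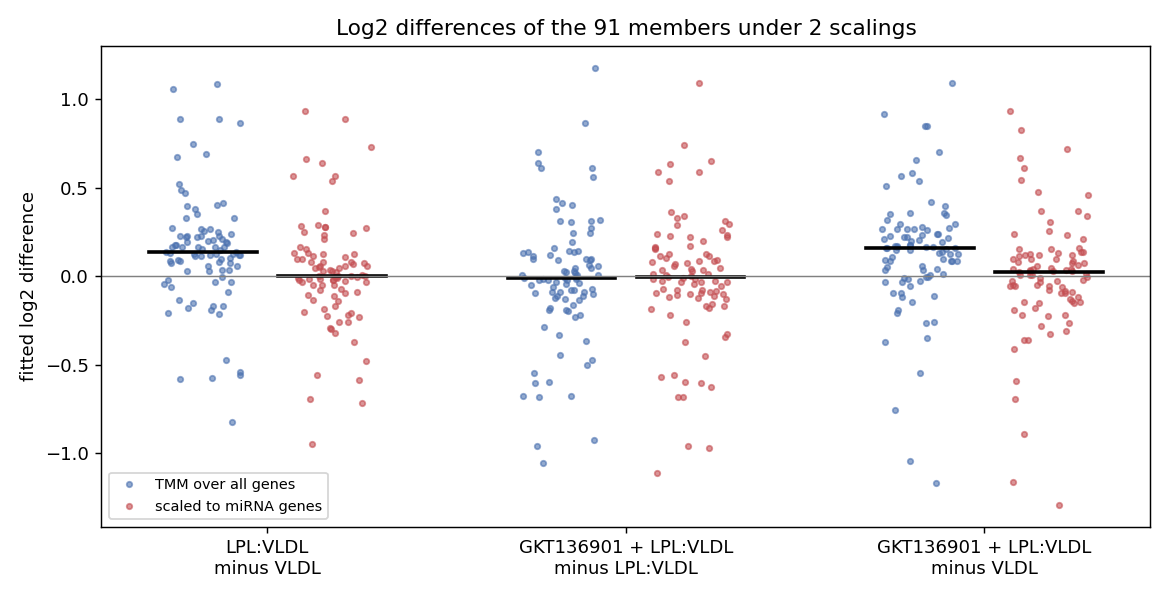
Fitted log2 differences of the 91 members in the 3 comparisons, under TMM scaling over all genes (blue) and scaling to miRNA genes (red). Points are members and black bars are medians, which are 0.14, -0.01 and 0.16 under TMM and 0.00, -0.01 and 0.02 under miRNA scaling.

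Where treatment gave no member called, the experiments did. An edgeR quasi-likelihood test of the 5 experiments, with the groups in the model, called 46 of 91 members at an adjusted p under 0.05, where 11.1% of all genes and 112 of 291 miRNA genes (38.5%), members included, were called. By library size alone 28 were called (12.5% of all genes) and with miRNA scaling 28 (13.4%). Members have more counts than most genes, and among the 712 genes that passed a stricter filter 54.6% were called, as were 65.5% of the miRNA genes among them and 43 of 58 members. Without experiment 2, 15 of 90 members were called, against 3.76% of all genes. In the called members the highest experiment was 1.5 to 30.7 times the lowest, with a median of 2.09.

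Experiment 2 was the lowest of the 5 in 33 of the 46 under TMM and in 27 with miRNA scaling, counts for which no all-gene share was computed. It was the highest of the 5 in 2 under TMM and in 8 with miRNA scaling. In 30 of all 91 members its 3 libraries were lower than each of the other 12, against 4.64% of all genes, and with miRNA scaling in 11, against 1.71%. The reverse was seen in 1 member under TMM (3.32% of all genes) and in 5 with miRNA scaling (9.32%). Beside this, miRNA genes took 31.1% ± 1.38 of the counts in experiment 2 and 45.8% ± 3.59 in experiment 5 (SD, n = 3). The members' share of miRNA counts was 3.18% ± 0.0773 in experiment 2 and 2.61% ± 0.142 in experiment 6 (SD, n = 3). In bulk RNA, fewer cells of a type and less RNA per cell cannot be told apart, and the part of the miRNA share in these differences was not tested.

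MIR584, in the gene SH3TC2 (chr5:149062313-149062409, minus strand), gave the lowest p. It averaged 8.42, 15.4, 19.5, 59.4 and 56.2 CPM in experiments 2 to 6, each from 3 libraries. All 6 libraries of experiments 5 and 6, between 50.1 and 66.9 CPM, lay above the other 9, which had 6.69 to 20.6. The adjusted p was 5.6e-12 by edgeR, 2.4e-10 with miRNA scaling and 3.9e-08 without experiment 2.

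MIR184, known from the lens and cornea of the eye (chr15:79209788-79209871, plus strand), ran the other way, with means of 39.4, 14.4, 18.7, 6.10 and 1.87 CPM. Its libraries had 32.6 to 47.8 CPM in experiment 2 and 1.48 to 2.65 in experiment 6, with no overlap. The edgeR adjusted p was 1.2e-11, and 9.2e-07 without experiment 2. MIR193A, a miRNA without a host gene, averaged 414, 375, 371, 228 and 208 CPM, and all 6 libraries of experiments 5 and 6 (195 to 250 CPM) were below the other 9. It was called without experiment 2 as well (adjusted p 7.2e-05 by edgeR).

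MIR365B lies 15328 bases downstream of MIR193A on the same strand of chromosome 17. It averaged 122, 147, 163, 109 and 102 CPM, also with experiments 5 and 6 lowest, at an adjusted p of 0.0039 by edgeR and 0.012 without experiment 2; it was named here for its place beside MIR193A, after its values were seen. MIR504 averaged 19.2, 40.2, 46.8, 16.4 and 14.5 CPM, with experiments 3 and 4 highest, at an adjusted p of 8.0e-06 by edgeR (7.7e-06 without experiment 2).

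For the other 4 of the 8 with the lowest p the call rested on experiment 2. MIR340 averaged 775, 1913, 1905, 2272 and 2205 CPM (edgeR adjusted p 6.7e-10), and the adjusted p was 0.36 without experiment 2. MIR628, in the gene CCPG1, averaged 14.6, 54.8, 50.8, 48.0 and 36.8 CPM (1.2e-07, and 0.27 without experiment 2, both edgeR). MIR361 had 293, 549, 587, 660 and 662 CPM, and MIR744 300.1, 493, 536, 631 and 633, with adjusted p of 0.44 and 0.14 by edgeR without experiment 2. In MIR361 the libraries of experiment 2, 279 to 304 CPM, were all below the other 12.

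**Figure D5:**
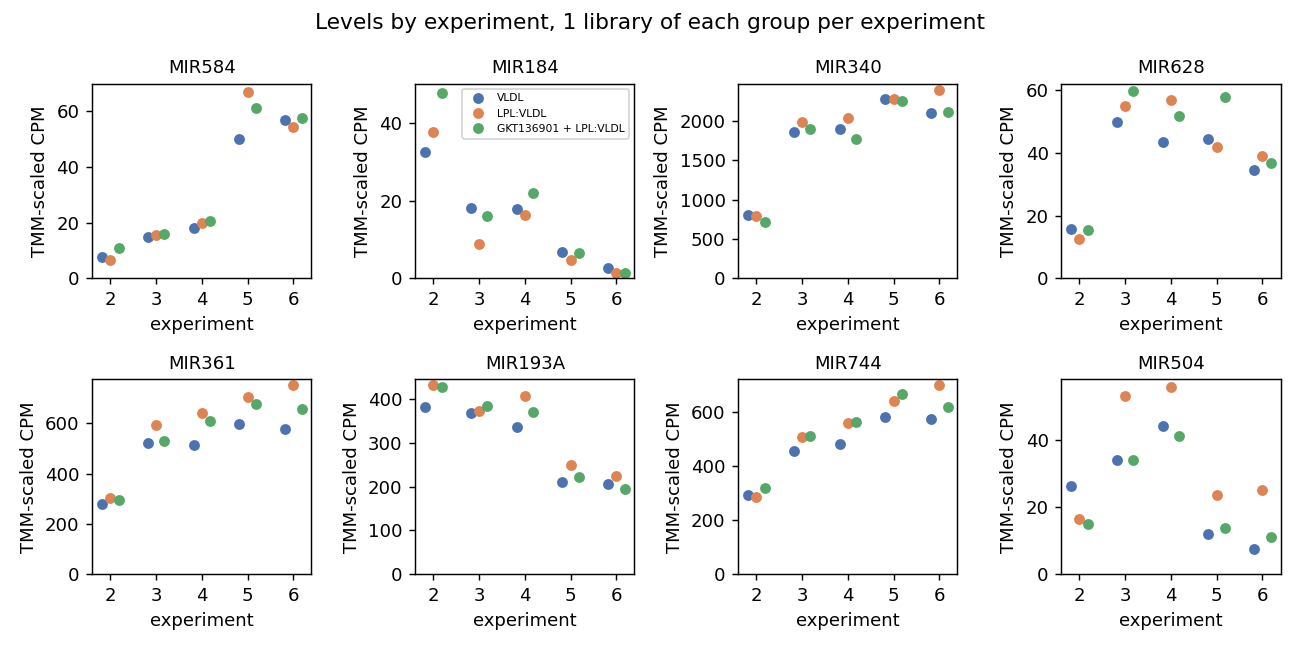
TMM-scaled CPM of the 8 members with the lowest p in the test of experiments, by experiment (2 to 6), with 1 point per library coloured by group. MIR584 is at 50.1 to 66.9 CPM in experiments 5 and 6 and at 20.6 or less before, and MIR340 is low in experiment 2 alone.

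Under TMM, library size and miRNA scaling alike 26 members were called, and 15 of these also without experiment 2. Of all genes, 11.1% were called under TMM and 3.76% under TMM without experiment 2. The share called under all these settings together was not computed. Among the 26, the means of experiments 5 and 6 were both above those of 2, 3 and 4 in 11 members under TMM and miRNA scaling: MIR584, MIR340, MIR361, MIR744, MIR455, MIR618, MIR199B, MIR548E, MIR335, MIR548J and MIR549A. They were both below in 7: MIR184, MIR193A, MIR504, MIR215, MIR365B, MIR190B and MIR200C. Without experiment 2 these 7 stayed called by edgeR, but of the 11 above only MIR584, MIR455, MIR199B and MIR335 did. For the rest of the 11, no difference among experiments 3 to 6 was called. The share of all genes with either pattern was not computed. The epithelial miRNAs MIR200C and MIR215 averaged 57.4 and 51.6 CPM in experiment 3 and 39.2 and 26.7 in experiment 6. This split of experiments was described after the values were seen and was not tested apart from the test over all 5 experiments.

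Of the cluster members, 4 of 8 in CLCN5 and 3 of 5 in the MIR424/MIR503 cluster were called between experiments under TMM. The share called was 11.1% of all genes, 38.5% of miRNA genes and 50.5% of the 91 members. With miRNA scaling, and by library size alone, the counts were 0 of 8 and 2 of 5 (MIR424 and MIR503). Of these, MIR424 was also called under TMM. Under both scalings 30.8% of members were called, and 13.4% and 12.5% of all genes. Without experiment 2 the cluster counts were 0 of 8 and 0 of 5, against 16.7% of members and 3.76% of all genes. MIR532 averaged 910.1, 1327, 1444, 1550 and 1612 CPM (edgeR adjusted p 0.00011), but with miRNA scaling its adjusted p was 0.33. The call for MIR532 thus depended on the scaling, as it did for 20 of the 46 called members. MIR424 averaged 90.2, 117, 127, 112 and 83.4 CPM, at an adjusted p of 0.025 by edgeR and 0.023 with miRNA scaling, and at 0.12 without experiment 2.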

How the data were processed

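Small RNA was sequenced from 15 libraries. The deposited values are raw counts, 1 column per library, which the authors had not normalized. Per the file headers, featureCounts 2.0.6 counted reads over exons grouped by gene in a RefSeq annotation of GRCh38.p14, and no option set strand, multi-mapping or overlap. Sense and antisense reads were therefore not told apart. The aligner STAR 2.7.11b, the trimmer fastp 0.24.0 and the build hg38 are named per the submitters' processing notes. Columns left without a sample numbered 0.

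The members, lists and tests were chosen with earlier results of these data known. Genes were kept by filterByExpr (minimum count 10, minimum total 15; 4099 genes with 99.7% of the counts; all 91 members passed). Groups were compared by the two-sided quasi-likelihood test of edgeR 4.0.16 (R 4.3.3) with TMM factors, all 3 groups in 1 model (12 residual degrees of freedom) and Benjamini-Hochberg adjustment over all genes tested. Adjusted p under 0.05 was called. Levels are means ± SD over libraries. Experiments were tested by the 4 experiment terms with group in the model.

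Replicate numbers share a labelled batch and so pair the libraries. As a check, the correlation of deviations from the group means was 0.066 to 0.38 in the 15 same-numbered pairs (median 0.11), against a median of -0.07 in other pairs.

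Alternatives were the replicate block, DESeq2 size factors, library size, scaling to miRNA genes, no filter, a filter of 50 counts in 5 libraries, DESeq2 1.42.0, limma voom 3.58.1 and leaving out libraries. The block combined with miRNA or library-size scaling was added after seeing the data. On simulated counts for LPL:VLDL against VLDL (4099 genes), 47% of 2-fold and 93% of 4-fold changes were recovered without the block, and 45% and 92% with it. Changed genes were drawn only from genes above a minimum mean count, which the 24 members under 300 counts did not reach. The simulated spread was that of the fit with the block, without differences between experiments. The rates therefore do not cover those members, and the rates without the block may be too high.

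Named members were the 12 with the highest totals, the 6 with the lowest p in each comparison in each fit, the 8 with the lowest p over experiments, up to 4 per list, and 3 on either side of the minimum. Sequences and host genes came from RefSeq tables.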

Additional observations from a re-analysis of the deposited data

Results flagged for a closer look

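In each group of 5 libraries, the named members were searched for a library whose gap to the nearest other exceeded 0.71 of the group's range. Of 159 groups over 53 members, 10 were picked out (6.29%), where chance gives about 5%, and 7 of the 10 are libraries of experiment 2. MIR340 had 790 CPM in LPL:VLDL replicate 1, and the other 4 libraries had 1985 to 2393. In VLDL replicate 1, MIR532 had 780 CPM (others 1288 to 1458), MIR186 434 (620 to 671), MIR361 279 (512 to 597), MIR502 10.6 (26.7 to 29.6) and MIR660 18.2 (44.6 to 52.2). MIR532, MIR502 and MIR660 belong to the CLCN5 cluster. MIR629 had 126 CPM in GKT136901 + LPL:VLDL replicate 1, and the others had 184 to 193. In replicate 4 of that group, from experiment 5, MIR342 was high at 1136 CPM (788 to 879) and MIR548A3 low at 1.14 (2.21 to 2.38). MIR578 was high at 5.33 CPM in LPL:VLDL replicate 3 (1.11 to 2.19).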

How the results depend on the processing

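No member was called between treatments under any alternative run, and the lowest adjusted p of a named member was 0.099, with DESeq2 and the block. The named differences were picked by low p in these same libraries, which favours a kept sign. The count of kept signs is therefore no separate support for their direction. Of 915 values of named differences under the alternatives, 913 kept their sign. The exceptions were MIR874 with GKT136901 against LPL:VLDL, at -0.14 with the replicate block and experiment 6 (replicate 5) left out, and MIR184 in the same comparison, at -0.26 without GKT136901 + LPL:VLDL replicate 1 (-0.26 to 1.22 over all libraries or experiments left out). All 252 levels of the 12 highest members under the alternatives stayed within 1 SD. For a mean with 1 of the 5 libraries left out this holds whatever the values, so there it is no check. Over all genes, LPL:VLDL against VLDL had 0 called genes, and with the replicate block 1, with DESeq2 and the block 5, with limma voom and the block 2, and 0 to 2 with libraries or experiments left out. GKT136901 + LPL:VLDL against VLDL had 0, and 2 and 1 with DESeq2 and limma voom with the block. The block changed no other call. Between experiments, 46 members were called, but 28 by library size alone and 28 with miRNA scaling, and 15 to 50 with 1 experiment left out, the 15 without experiment 2. With DESeq2 it was 54. For all genes the 455 calls became 145 to 460 with 1 experiment left out, and under the other alternatives ran from 389 (stricter filter) to 581 (DESeq2). Why these counts moved was not tested. The 24 members under 300 counts varied by a median of 68.8% between libraries, against 20.1% in the 24 with at least 10000.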
